A study of Homo sapiens with 5 samples.

Results

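COX1, COX2, COX3, CYTB, ATP6 and ATP8 are 6 of the 13 protein genes carried by the human mitochondrial genome. COX1, COX2 and COX3 encode the core subunits of cytochrome c oxidase (complex IV), CYTB encodes cytochrome b of complex III, and ATP6 and ATP8 encode subunits of the membrane part of the ATP synthase (complex V). These 6 rows were taken by their symbols, as written without the MT prefix, from a table of 17297 genes in which ribosome footprints had been counted. The other 7 mitochondrial protein genes, ND1 to ND6 and ND4L, encode subunits of complex I and serve as the comparison.

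The libraries came from HCT116, a human colorectal carcinoma line, grown to 60 to 70% density and otherwise untreated per the labels. The WT group (2 libraries) was labelled wild type. The MUT group (3 libraries) was labelled eIF6-N106S, meaning cells edited with CRISPR/Cas9 so that both copies of the gene for eIF6, a factor that binds the large cytosolic ribosomal subunit, encode serine in place of asparagine. The growth text speaks of mutant clones, but not of which clone gave which library or of separate cultures. The p-values here therefore rest on library-to-library spread, part or all of which may be technical. The test estimates that spread partly from all genes tested, so the estimate can be smaller than a gene's own spread. The mutation cannot be told apart from other differences between clones and parent line. By its title, the study concerns eIF6, the pool of free ribosomal subunits, and the division and growth of cancer cells. RNA-seq was not analysed here, so less mRNA and fewer ribosomes per mRNA cannot be told apart.

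Mitochondria translate their own mRNAs on mitochondrial ribosomes, which are built from other proteins and rRNAs than the cytosolic ones and are lighter than the cytosolic 80S particle. The mRNAs are cut from long transcripts of each strand and have little or no leader before the start codon. ATP8 and ATP6 lie on 1 mRNA with overlapping reading frames, and so do ND4L and ND4. The products are inserted into the inner membrane as they are made and join subunits that are encoded in the nucleus and imported. In this protocol, extract was digested with MNase and the fragments came from the gradient fraction of cytosolic 80S monosomes. Footprints of mitochondrial mRNAs in these libraries are therefore those that reached that fraction, and how that share varied between extracts was not tested.

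On the annotated mitochondrial chromosome (MT, GRCh38.p14 bounds from RefSeq) the 6 genes are all read from the same strand. COX1 (gene ID 4512) spans 5904 to 7445, COX2 (4513) 7586 to 8269, ATP8 (4509) 8366 to 8572, ATP6 (4508) 8527 to 9207, COX3 (4514) 9207 to 9990 and CYTB (4519) 14747 to 15887. ATP8 and ATP6 share 46 nucleotides, and the sources used here do not say how reads in that overlap were assigned. RefSeq's table also lists 219 nuclear pseudogenes named after the 6 genes, none of them a row of the count table. A run of them on chromosome 1 holds copies of COX1 (MTCO1P12, 631074 to 632616), COX2 (MTCO2P12), ATP8 (MTATP8P1), ATP6 (MTATP6P1) and part of COX3 (MTCO3P12) in the mitochondrial order, but not of CYTB. Reads that match both a gene and such a copy may have been kept or dropped, and the effect on each gene's level was not tested.

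Library totals ran from 2095217 to 3821176 counts. All 13 mitochondrial protein genes were in the table, with 0 of the mitochondrial tRNA or rRNA genes. The colon epithelial markers EPCAM, CDH1, KRT8, KRT18, KRT19, CLDN7 and ELF3 were all counted in every library, with a summed level of 1115 to 1197 CPM (counts relative to library size; for the genes below, the size adjusted by TMM factors) in WT and 1184 to 1512 CPM in MUT. The keratins carried that sum, and the members moved in both directions. EPCAM, CDH1, CLDN7 and ELF3 fell in MUT, with log2 fold changes of -0.50, -0.90, -0.57 and -0.59 (edgeR adjusted p 0.0087, 0.00741, 0.0155 and 0.018). KRT8 and KRT19 rose (0.37 and 0.29, adjusted p 0.0199 and 0.0463), and KRT18 was not called (0.12, 0.413). The part of these marker shifts in the changes below was not tested. Of 9 markers of leukocytes, endothelium and fibroblasts, 6 were rows of the table, and together they reached 7.35 to 9.55 CPM in WT and 7.99 to 10.7 CPM in MUT. Of those 6, 5 were at or under 1.91 CPM in every library, and COL1A1 lay between 6.66 and 9.10 CPM. The WT libraries stood apart from each other in mitochondrial footprints, as described next, so the change of each of the 6 genes is given with and without WT replicate 1. A fit without either WT replicate sets 1 WT library against 3 MUT libraries, so spread between WT libraries does not enter it. Whether a gene passes in such a fit does not show robustness to that spread.

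The 6 genes held a smaller share of the footprints in MUT than in WT. WT replicate 1 gave them 0.662% of all its counts and WT replicate 2 gave them 0.520%. MUT replicates 1, 2 and 3 gave them 0.444%, 0.425% and 0.442%. Both WT libraries lay above the 3 MUT libraries, and the gap between the WT libraries was wider than the range of the MUT libraries. The WT mean was 0.591% ± 0.101 (SD, n = 2) and the MUT mean 0.437% ± 0.0108 (SD, n = 3), a difference of -0.154 percentage points. Without WT replicate 1 it was -0.0823 points. The 95% exact binomial interval of the share in 1 library was narrow (0.651% to 0.673% in WT replicate 1, 0.418% to 0.431% in MUT replicate 2) and covers counting error only. No p is given for this sum, since the genes were chosen with earlier results of these data known.

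COX1, which carries the haem and copper centre where oxygen is reduced, changed most among the 6. Its level was 1965 and 1561 CPM in WT replicates 1 and 2, and 1037, 1078 and 1045 CPM in MUT replicates 1 to 3. Both WT libraries stood clear of all MUT libraries: the lower WT value was 1.45-fold the highest MUT value, while the MUT values spanned 1.04-fold. COX1 fell 1.67-fold, with a log2 fold change of -0.74 (SE 0.105) and an adjusted p of 2.72e-05 in edgeR's quasi-likelihood test over all 11991 genes tested. A gene was called, here and below, where that adjusted p was under 0.05. The call of COX1 held when any 1 MUT library was left out. Dropping WT replicate 2 gave a log2 fold change of -0.89, and dropping WT replicate 1 gave -0.57.

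COX3, a core subunit without metal centres, was at 1449 and 1079 CPM in WT and 865, 813 and 905 CPM in MUT. The groups did not overlap, and the WT libraries differed from each other by 1.34-fold. It fell 1.47-fold, with a log2 fold change of -0.55 (SE 0.111, edgeR adjusted p 0.00102). Without WT replicate 1 the log2 fold change was -0.33. 

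COX2, which holds the copper site that takes electrons from cytochrome c, was at 1806 and 1308 CPM in WT and 1207, 1188 and 1215 CPM in MUT. WT replicate 2 was 1.08-fold above the highest MUT library, against 1.38-fold between the WT libraries. Its log2 fold change of -0.37 (SE 0.113) passed with an edgeR adjusted p of 0.0204. The call ended without MUT replicate 1 (log2 fold change -0.37, edgeR adjusted p 0.104) and without MUT replicate 3 (-0.37, 0.0578). Without WT replicate 1 the log2 fold change was -0.13.

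CYTB, the haem protein that moves electrons and protons across the membrane in complex III, was at 981 and 768 CPM in WT and 659, 600 and 641 CPM in MUT. The groups did not overlap, with WT replicate 2 at 1.17-fold the highest MUT library. CYTB fell 1.38-fold, with a log2 fold change of -0.46 (SE 0.105, edgeR adjusted p 0.00267). Without WT replicate 1 it was -0.29.

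The ATP synthase pair did not pass. ATP6, which forms the proton channel beside the rotor, was at 609 and 495 CPM in WT and 471, 450 and 453 CPM in MUT. Both WT libraries were above all MUT libraries, WT replicate 2 by 1.05-fold. Its log2 fold change was -0.27 (SE 0.0999, edgeR adjusted p 0.0556), or -0.12 without WT replicate 1 and -0.41 without WT replicate 2. ATP8, a small subunit beside ATP6 in the stator, was at 117 and 103 CPM in WT and 110, 72.7 and 76.5 CPM in MUT. MUT replicate 1 lay between the WT libraries and apart from the other MUT libraries. ATP8 had the fewest counts of the 6, from 234 to 347 a library, and the 95% exact Poisson interval of MUT replicate 1 (99.1 to 123 CPM) did not reach that of MUT replicate 2 (64.4 to 81.8 CPM). Its log2 fold change was -0.35 (SE 0.138, edgeR adjusted p 0.0703). Without WT replicate 1 it was -0.27, and without WT replicate 2 it was -0.44. ATP8 passed when MUT replicate 1 was left out (-0.55, edgeR adjusted p 0.00872). It did not when MUT replicate 2 or 3 was left out, at -0.23 and -0.27.

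**Figure D1:**
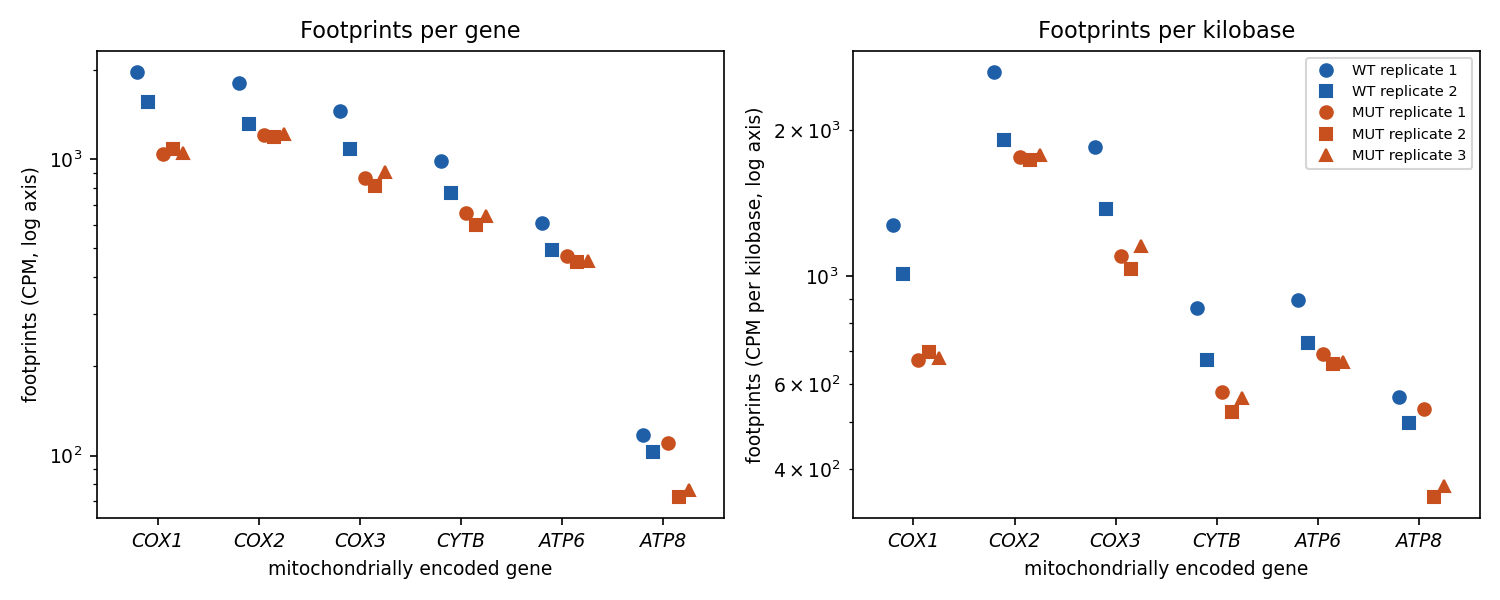
Footprints on each of the 6 genes in each library, as CPM (left) and as CPM per kilobase of annotated gene (right), both on log axes; blue marks WT and orange MUT libraries. WT replicate 1 is the highest library for every gene, and COX1 shows the widest gap between WT replicate 2 (1561 CPM) and the highest MUT library (1078 CPM).

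In all, 4 of the 6 genes were called lower and 0 higher, where 12.9% of all genes tested were called lower and 10.0% higher. For 5 of the 6, all MUT libraries were below all WT libraries, which held for 25.3% of all genes tested. The reverse, all MUT libraries above all WT libraries, held for 0 of the 6 and 25.4% of all genes. The median log2 fold change of the 6 was -0.42, against 0.0024 for all genes. The split over all genes depended on the scaling: 1544 genes were lower and 1203 higher with TMM factors, 1209 and 1558 with upper-quartile scaling, and 1040 (8.67%) and 1756 (14.6%) with library size only. In each of these scalings 4 of the 6 genes were called lower, with a median of -0.37 and -0.34 in the latter pair. The count called lower was 4 without MUT replicate 1, 4 without MUT replicate 2 and 3 without MUT replicate 3. Without WT replicate 1 the median of the 6 was -0.28, and without WT replicate 2 it was -0.60.

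**Figure D2:**
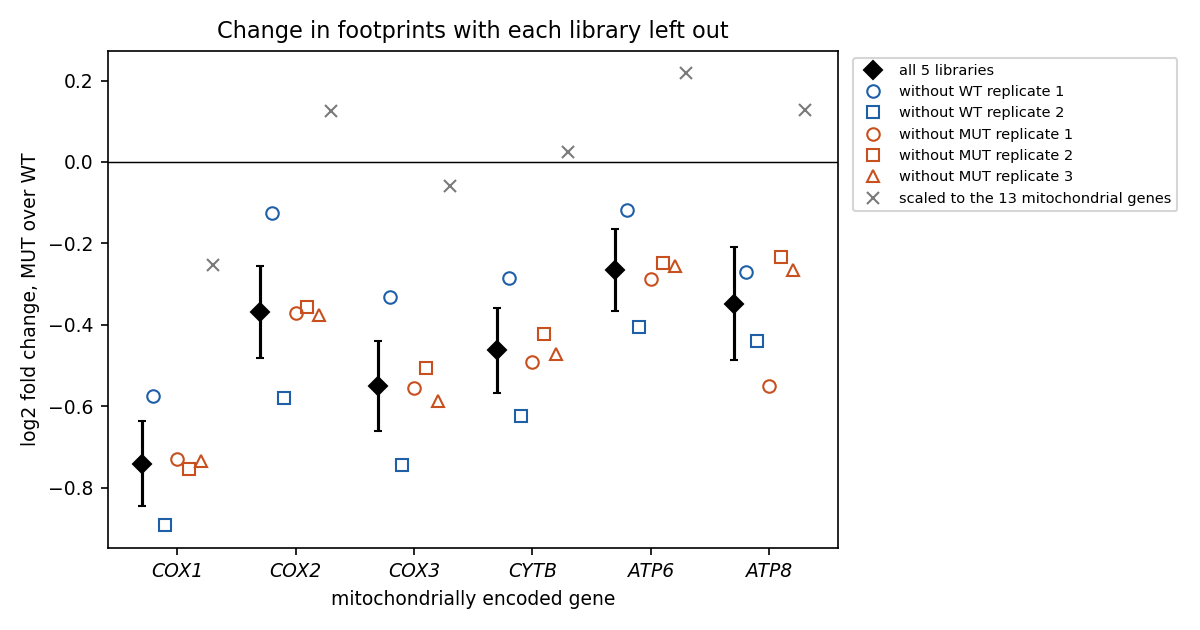
Log2 fold change (MUT over WT) of the 6 genes with all 5 libraries (black diamonds, bars 1 SE), with each library left out (open marks) and with the libraries scaled to their summed mitochondrial counts (grey crosses). All values with whole-library scaling are below 0, those without WT replicate 1 come nearest to 0 for every gene but ATP8, and the crosses of COX2, CYTB, ATP6 and ATP8 lie above 0.

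The 6 genes did not change by equal amounts relative to each other. As a share of the counts of all 13 mitochondrial protein genes, which needs no scaling between libraries, COX1 was at 19.4% and 19.3% in WT and at 15.8%, 16.8% and 16.1% in MUT. The WT libraries, which differed by 1.26-fold in the CPM of COX1, were nearly equal in this share, and both lay above every MUT library. ATP6 went the other way, with 6.0% and 6.13% in WT and 7.18%, 7.02% and 6.97% in MUT. COX2 also took a larger share in MUT, at 18.4%, 18.5% and 18.7% against 17.8% and 16.2% in WT, but its WT libraries were further apart than the groups' nearest values. COX3, CYTB and ATP8 overlapped between the groups. COX3 had 14.3% and 13.4% in WT and 13.2%, 12.7% and 13.9% in MUT. CYTB was at 9.67% and 9.52% in WT and 10.0%, 9.36% and 9.87% in MUT. ATP8 was at 1.15% and 1.28% in WT and 1.68%, 1.13% and 1.18% in MUT.

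The mean difference in share was -3.12 percentage points for COX1 and 0.989 points for ATP6. When any 1 library was left out these ranged from -3.42 to -2.90 and from 0.923 to 1.06 points. For COX2 the difference was 1.54 points. It rested on the WT libraries, at 0.747 points when replicate 2 of WT was dropped and 2.34 points when replicate 1 was. The genes were also fitted with the summed counts of the 13 genes as library size, an alternative added after the data had been seen. COX1 was called lower there (log2 fold change -0.25, edgeR adjusted p 0.0284). That library size moves all genes tested upward in MUT, and the adjustment runs over all of them. Its adjusted p therefore cannot be read like that of the main fit. COX1 is also part of the summed counts. None of the other 5 passed in that fit: ATP6 was at 0.22 (adjusted p 0.137), ATP8 and COX2 at 0.13 each, CYTB at 0.02 and COX3 at -0.06.

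**Figure D3:**
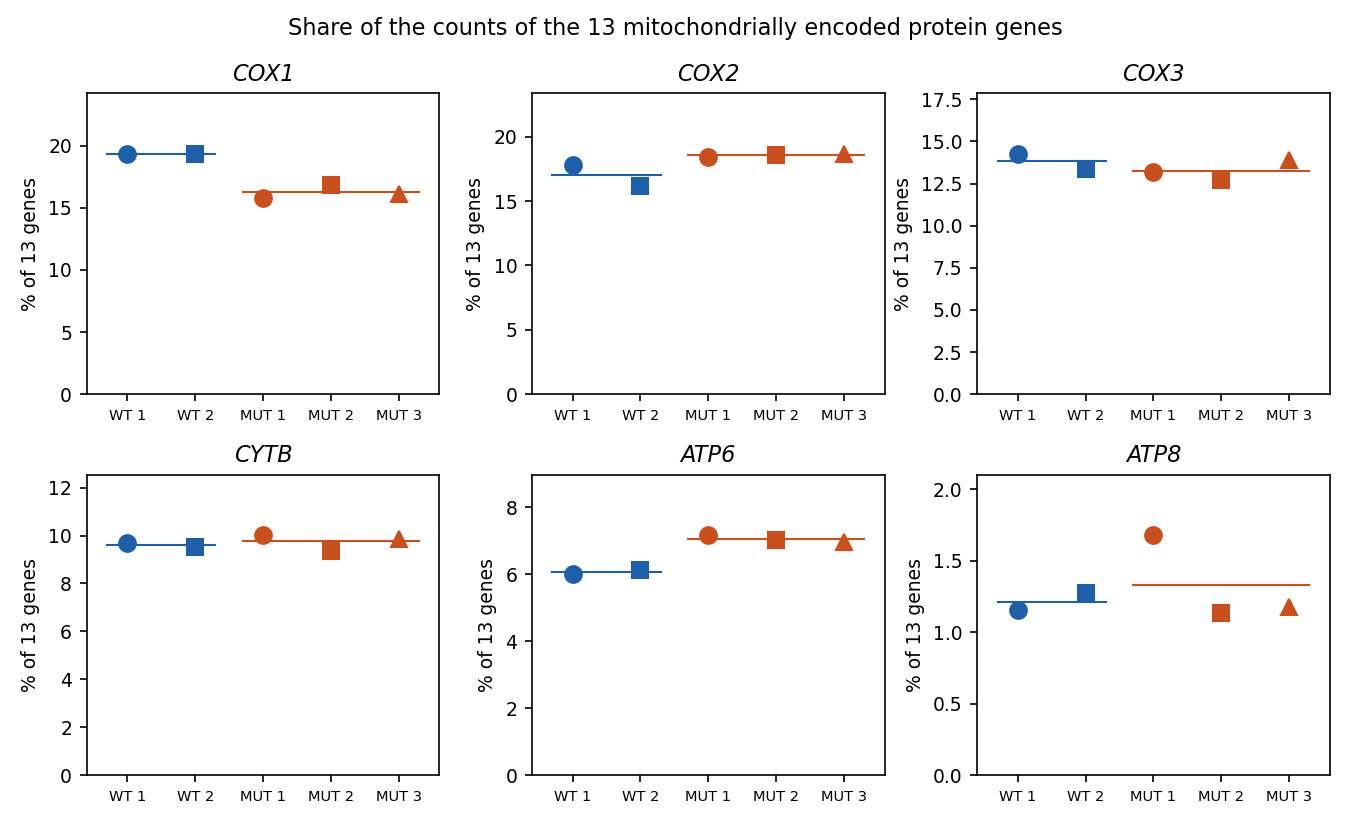
Each of the 6 genes as a percent of the counts of the 13 mitochondrial protein genes, by library, with the group means as lines; each panel has its own axis from 0. The COX1 panel shows both WT libraries at or above 19.3% and all MUT libraries at or below 16.8%, and the ATP6 panel shows the MUT libraries at or above 6.97% with WT at or below 6.13%.

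Count ratios between pairs of the 6 genes restate the shares above, from the same counts, as 1 gene against another within each library. Of the 15 pairs, 8 had no overlap between the groups, among them all 5 that involve COX1. The 15 ratios are built from 6 counts a library, so they are not independent, and those 5 all hold the COX1 count. In CPM, 25.3% of all genes tested had every MUT library below both WT libraries, and 25.4% had every MUT library above them. The 8 pairs include both directions, so the sum of these shares is their nearest background. At 8 of 15 the pairs lie near that sum, so the count does not set them apart. The ratio of COX1 to COX2 was 1.09 and 1.19 in WT and 0.859, 0.907 and 0.860 in MUT. COX1 to ATP6 was 3.22 and 3.15 in WT and 2.20, 2.40 and 2.31 in MUT, the ratio with the largest proportional change of the 15. COX2 to COX3 was higher in MUT, at 1.40, 1.46 and 1.34 against 1.246 and 1.21. For the genes that share an mRNA, the ratio of ATP6 to ATP8 was 5.21 and 4.81 in WT and 4.27, 6.19 and 5.93 in MUT, so the groups overlapped. These ratios were not tested, since a one-sided exact permutation test of 2 against 3 libraries cannot give a p below 0.1.

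Per length, COX2 had the densest footprints of the 6 in every library. Its density was 2276 ± 516 CPM per kilobase over the WT libraries (SD, n = 2) and 1760 ± 20.0 over the MUT libraries (SD, n = 3), and the errors that follow are of the same kind. COX3 came next in every library, with 1612 ± 334 and 1098 ± 59.1 CPM per kilobase. In WT, COX1 followed with 1143 ± 185, and its lower library (1012 CPM per kilobase) was above the higher library of ATP6 (895). In MUT, COX1 (683 ± 14.1) and ATP6 (673 ± 16.7) could not be ordered beyond their spread, and ATP6 was ahead in MUT replicate 1. CYTB had 767 ± 132 CPM per kilobase in WT and 555 ± 26.5 in MUT. In WT its range overlapped that of ATP6 (811 ± 119), though ATP6 was ahead of CYTB within every library. ATP8 was lowest in every library, at 531 ± 47.4 and 418 ± 100 CPM per kilobase, and its highest MUT library overlapped the range of CYTB. COX2 was 3.31-fold to 4.95-fold as dense as ATP8 across the 5 libraries. The lengths count the 46 nucleotides shared by ATP8 and ATP6 in both genes, out of 207 for ATP8. The density and rank of ATP8 therefore depend on how reads there were assigned, which is not known. The effect of nuclear copies on the order was not tested. COX2 was 1.89-fold to 2.07-fold as dense as COX1 in WT and 2.49-fold to 2.63-fold in MUT.

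The mitochondrial complex I genes moved in both directions. ND4L and ND4, which share an mRNA, fell, with log2 fold changes of -0.65 and -0.58 (edgeR adjusted p 4.61e-05 and 0.000193), and ND5 fell with a log2 fold change of -0.54 (adjusted p 0.000632). ND2 passed narrowly at -0.27 (0.0494). ND3 was called higher, with 89.4 and 94.2 CPM in WT and 120, 111 and 112 CPM in MUT and a log2 fold change of 0.31 (adjusted p 0.0341), a call that ended without WT replicate 1, WT replicate 2 or MUT replicate 1 and in DESeq2. ND1 (-0.15) and ND6 (-0.40), the only protein gene on the other strand, did not pass (adjusted p 0.306 and 0.0532). The 7 genes together held 0.289% ± 0.0272 of WT counts (SD, n = 2) and 0.223% ± 0.00277 of MUT counts (SD, n = 3). The 6 oxidase, cytochrome b and ATP synthase genes held 68.2% and 65.8% of the mitochondrial counts in WT and 66.3%, 65.6% and 66.7% in MUT, so the split between them and complex I overlapped between the groups.

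The nuclear partners of the 6 genes were also lower or not called. For complex IV, 7 of 13 nuclear subunits tested fell and 0 rose, with a median log2 fold change of -0.37 (5 fell and the median was -0.30 without WT replicate 1). The small subunits COX7B (292 ± 47.4 CPM in WT and 179 ± 17.5 in MUT) and COX6C (324 ± 11.4 and 228 ± 22.5) had the lowest p, with edgeR adjusted p of 5.60e-05 and 0.000649. For complex III, 3 of 9 fell and 0 rose, with a median of -0.13 (-0.06 without WT replicate 1, -0.21 without WT replicate 2). UQCRB and UQCRC2 had log2 fold changes of -0.46 and -0.44 (edgeR adjusted p 0.00108 and 0.00212), and the hinge protein UQCRH, named after its value was known, -0.31 (0.0404). For complex V, 11 of 19 fell and 0 rose, with a median of -0.30. The stalk subunits ATP5PD and ATP5PO led, at -0.45 and -0.42 (edgeR adjusted p 0.00124 and 0.00204). Here and below, genes that are not core subunits are counted with the nuclear subunits. Among them are the supercomplex factor COX7A2L (-0.37, edgeR adjusted p 0.0107), the ATPase inhibitor ATP5IF1 (-0.38, 0.00702) and the coupling factor DMAC2L (-0.40, 0.238). Without WT replicate 2, 1 of the complex III and 3 of the complex V subunits fell, and without MUT replicate 1, 7 of complex V fell. These shares stand beside 12.9% called lower among all genes tested.

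Summed by genome, COX1, COX2 and COX3 had 5220 and 3947 CPM in WT and 3109, 3079 and 3166 CPM in MUT. Their nuclear partners in complex IV had 2654 and 2439 CPM in WT and 2119, 1967 and 1899 CPM in MUT. The WT libraries differed much more for the mitochondrial subunits than for the nuclear ones. For complex V, ATP6 and ATP8 together had 726 and 598 CPM in WT and 581, 523 and 530 CPM in MUT, and the nuclear subunits 4649 and 4712 CPM in WT and 3887, 3935 and 3758 CPM in MUT. MUT means were 0.823-fold and 0.825-fold the WT means for the mitochondrial and nuclear parts of complex V, and 0.680-fold and 0.783-fold for those of complex IV.

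**Figure D4:**
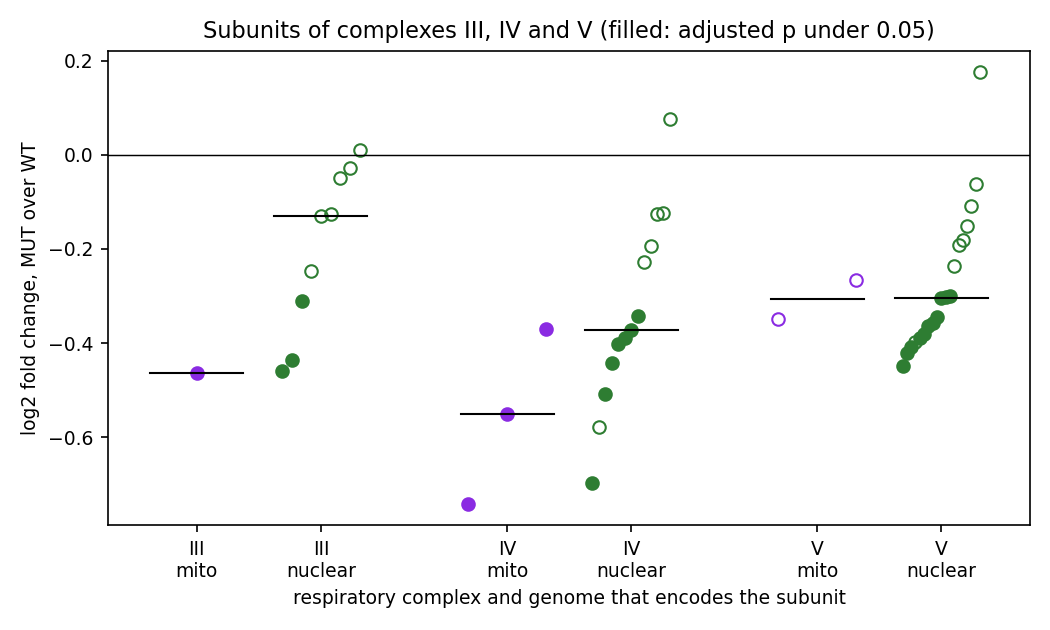
Log2 fold change (MUT over WT) of every tested gene counted with the subunits of complexes III, IV and V, split by the genome that encodes it. Filled marks passed an edgeR adjusted p of 0.05 and lines are medians. COX1 at -0.74 is the lowest point of all, and the nuclear complex IV subunit COX7B at -0.70 is next.

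Factors that assemble these complexes or express the mitochondrial genome were also counted, to be read against 12.9% of all genes called lower and 10.0% higher. Of 28 complex IV assembly factors 6 fell (21.4%) and 0 rose, with a median log2 fold change of -0.08. COX20, a chaperone of newly made COX2, was 1.39-fold lower and COX16, which takes part in COX2 maturation, 1.41-fold lower (edgeR adjusted p 0.00109 and 0.00151). Of 15 assembly factors of complexes III and V, 2 fell and 2 rose (13.3% each), near the shares of all genes. TMEM70 and ATPAF1, both of ATP synthase assembly, had log2 fold changes of -0.43 and -0.44 (edgeR adjusted p 0.00255 and 0.00268). The 2 that rose were BCS1L and UQCC1, of complex III assembly, at 0.60 and 0.35 (0.0032 and 0.0258), both named with their values already known. When WT replicate 2 was left out, 2 of the complex IV factors and 0 of the complex III and V factors were called. When WT replicate 1 or MUT replicate 3 was left out, or in DESeq2, 1 of these 2 rises was called.

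Of 31 factors of mitochondrial mRNA processing, stability and translation, 4 fell (12.9%) and 2 rose (6.5%), with a median of -0.11. The first share equals the 12.9% called lower among all genes and the second is below the 10.0% called higher, so the counts do not set this list apart. The release factor family member MTRF1 and the tRNA-end processing subunit TRMT10C had log2 fold changes of -0.59 and -0.43 (edgeR adjusted p 0.00423 and 0.00685). The formyltransferase MTFMT and MTRES1 were at -0.51 and -0.67 (0.00781 and 0.00893), and the risers, the tRNA-end nuclease ELAC2 and PTCD1, at 0.35 and 0.60 (0.0183 and 0.0276). Those that fell numbered 7 when WT replicate 1 was left out and 1 when WT replicate 2 was, with 0 risers in either fit, when MUT replicate 2 was left out or in DESeq2. LRPPRC, which keeps mitochondrial mRNAs stable, and TACO1, an activator of COX1 translation, did not pass, at -0.17 and 0.03 (edgeR adjusted p 0.224 and 0.899). Of this list, all genes named but MTRF1 and TRMT10C were picked with their values known. Of 16 genes of mitochondrial DNA transcription and maintenance, 5 fell (31.2%) and 0 rose, with a median of -0.18. With library size only 2 of the 16 rose, and 1 did with upper-quartile scaling and in the fit with the replicate number as a block. The DNA-binding proteins SSBP1 and TFAM fell 1.35-fold and 1.33-fold (edgeR adjusted p 0.0031 and 0.00363). The others, TFB1M, MGME1 and MTERF3, had log2 fold changes of -0.50, -0.35 and -0.43 (edgeR adjusted p 0.00795, 0.0118 and 0.0137) and were named with values known. The count of falls was 2 when WT replicate 2 was left out.

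The profile of the summed 6 genes over the 5 libraries was compared with 3133 other genes of at least 100 CPM, as the root mean square difference between log2 CPM centred on each gene's mean. The 5 nearest genes were RPL31 (0.0214), TGFBR2 (0.0346), RPS13 (0.0401), RPL13 (0.0439) and GDE1 (0.0458), where the median gene was at 0.247. RPL31, RPS13 and RPL13 encode cytosolic ribosomal proteins, and TGFBR2 a receptor of TGF-beta. RPL31 was at 493 and 374 CPM in WT and 297, 289 and 302 CPM in MUT. It was picked for its likeness to the sum, so its high value in WT replicate 1 follows from that choice. Among the mitochondrial genes themselves, CYTB (0.0354), ND5 (0.0371) and COX3 (0.0428) were near the sum, and COX1 (0.122), ATP6 (0.12) and ATP8 (0.217) were further from it. ND3 (0.426) and ND6 (0.302) were furthest. Each of the 6 genes is itself part of the sum, which draws its value down, while the complex I genes are not.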

How the data were processed

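The authors deposited raw counts of ribosome-protected fragments per gene for 5 libraries (2 WT, 3 MUT). STAR 2.5.2b, build hg38, FastQC 0.12.1, DESeq2 1.42.0 and cutadapt 4.6 are named in the list given per the submitters' processing notes. For the counting tool, annotation, strand and reads with several matches, the sources used here state nothing. Columns were matched to samples by the codes in the header, and 13 mitochondrial protein genes by symbol to RefSeq's table for GRCh38.p14.

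The test was edgeR 4.0.16 under R 4.3.3, with filterByExpr (minimum count 10, minimum total 15), TMM factors (0.959 to 1.03), and the quasi-likelihood F test of MUT over WT on 11991 genes, with Benjamini-Hochberg adjustment at 0.05. Standard errors come from the F statistic. The common coefficient of variation beyond counting error, estimated over all genes tested, was 7.37%. Between the WT libraries the CPM of the 6 genes varied by 8.92% (ATP8) to 22.7% (COX2). Between the MUT libraries it varied by 1.14% (COX2) to 24% (ATP8). CPM uses TMM-scaled library sizes. Named genes are the 13 mitochondrial genes, up to 2 genes of lowest p in each of 8 lists, and the 5 nearest profiles. Other genes of these lists that the report names were picked with their values known, and the cell type markers are a set of their own. Members and lists were chosen with earlier results of these data known. Alternatives were RLE, upper-quartile and library-size scaling, DESeq2 1.42.0, limma-voom (limma 3.58.1), no count filter or a strict one (mean of 10 CPM, and 30 counts in 2 libraries), a replicate block, and each library left out. Sequences of the 6 genes were not used here.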

Additional observations from a re-analysis of the deposited data

How the results depend on the processing

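Under the 13 other settings listed in the methods (scaling, filters, tools, the block and each library left out) all 6 genes kept a log2 fold change below 0. COX1 and COX3 were called in all 13, CYTB in 12, COX2 in 10, ATP6 in 4 and ATP8 in 3. These counts include the fits without WT replicate 1 or 2, which hold 1 WT library each. With 1 library left out at a time, the log2 fold change ran from -0.89 to -0.57 for COX1, -0.58 to -0.13 for COX2, -0.74 to -0.33 for COX3, -0.63 to -0.29 for CYTB, -0.41 to -0.12 for ATP6 and -0.55 to -0.23 for ATP8. ATP6 passed in limma-voom (-0.26, adjusted p 0.0478) and in edgeR without a count filter (-0.26, 0.0479), and ATP8 in edgeR without a count filter (-0.34, 0.0302). With the 13 mitochondrial genes as library size, COX3 was at -0.059 and no longer called, and the sign turned for COX2 (0.13), CYTB (0.024), ATP6 (0.22) and ATP8 (0.13), as that scaling sets the genes against each other. The replicate block called ATP6 (-0.25, adjusted p 0.0456) and ATP8 (-0.30, 0.0213) and changed no other call among the 6. Nothing in the labels pairs libraries of the same number, and their deviations correlated at 0.0797 (number 1) and 0.146 (number 2). 

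Over all genes, edgeR called 1203 higher and 1544 lower, and DESeq2 609 and 948. Upper-quartile scaling gave 1558 and 1209, and library size only 1756 and 1040, so that higher calls outnumbered lower ones. With 1 library left out the counts ranged from 509 (without WT replicate 2) to 1089 higher and from 732 (without WT replicate 2) to 1339 lower. Leaving out WT replicate 1 gave 646 higher, and leaving out MUT replicate 1 gave 721 higher and 908 lower. The difference in the share of the 6 genes ranged from -0.225 to -0.0823 percentage points, and that in ATP8's share of the 13 genes from -0.0586 (without MUT replicate 1) to 0.215. Among counts in the gene lists, 184 of the values under alternatives were within 1.5 times the main count, 19 were lower and 5 higher. Main counts of 0 that stayed at 0 are among the 184 and could not have gone lower, so the tally says little about how steady the lists were. Causes were not tested. Of the 6 genes ATP8 had the lowest depth, with 234 counts in its smallest library. Its spread between MUT libraries was wider than counting error, as the exact Poisson intervals of MUT replicates 1 and 2 did not overlap.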
